A study of Mus musculus with 8 samples.

Results

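The cytosolic ribosome carries a set of proteins that every translating cell makes in large amounts, and their mRNAs were examined in lactating mammary glands with and without Th-POK. Members were all genes whose symbol, reached from the accession of an array probe, begins with Rps or Rpl followed by a digit or is Rplp0, Rplp1 or Rplp2, leaving out the Rps6k kinases and symbols with the pseudogene mark -ps. Rps4l, a transcribed pseudogene by its annotation, lacks that mark and stayed in. The rule took 83 of the 18749 gene symbols on the array, and 82 of these were among the 14135 genes bright enough to be tested. The 82 comprise 29 proteins of the small subunit, 43 of the large subunit, 3 of the ribosomal stalk, 6 paralogues with a parent gene among the others, and Rps19bp1, whose symbol fits the rule although its product, AROS, is a nucleolar protein that binds Rps19 and is no ribosomal protein. The 75 proteins of the subunits and stalk are called the core ribosomal proteins here. No measured value entered the rule. Rpl3l, a paralogue of Rpl3 known from striated muscle, was not bright enough for the test.

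Ribosomal proteins are joined to ribosomal RNA in the nucleolus, where RNA polymerase I makes the rRNA and assembly factors process and fold it before the subunits leave for the cytoplasm. In mammals most of their mRNAs start with a C followed by a stretch of pyrimidines, the 5′ terminal oligopyrimidine form. One known action of mTORC1 on such mRNAs is on their translation, and a measurement of RNA level does not see translation. The lactating alveolus is among the tissues with the highest protein output, and mTORC1 is a known regulator of its protein and lipid synthesis.

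One-colour Agilent mouse arrays, 8 in all, measured total RNA, 4 of them from wild-type (WT) and 4 from Th-POK knockout (KO) mice. Both groups were females of C57/Bl6 background at lactation day 1, age-matched according to the methods, and each array held the mammary gland RNA of 1 biological replicate. The KO mice lack Th-POK (gene Zbtb7b) in all tissues, including the T cells that need it to become CD4 helper cells, so these glands do not isolate a loss in the epithelium. The study asked how loss of Th-POK alters gene expression in the lactating gland, with mTOR signalling as one of its interests.

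The start of some of these mRNAs can be seen in the promoter sequences of RefSeq (GRCm38.p6). A promoter was found for 62 of the 82 tested members. Transcription began with a C followed by at least 4 more pyrimidines in 13 of the 62 (21.0%), against 3.01% of the 27025 genes in the same table, and in none of 69 genes for mitochondrial ribosomal proteins. A run of at least 8 pyrimidines within 10 bases of the start was found in 22 of the 62 (35.5%), against 9.25% of all genes. The letters AAGATGG or their reverse complement, a core of YY1 sites, lay within the promoter window of the table, which reaches 50 bases into the transcript, of 10 members (16.1%), against 7.28% of all genes and 18.8% of the mitochondrial set. Starts in this table are those of 1 annotated transcript or a few, so a start that is off by a base would miss the form. The 30 bases from 10 before the start are shown for 5 members of that form and then for the 3 members whose values differed most between the genotypes, with the transcribed pyrimidine run in capitals.
Rps6, substrate of S6 kinase (chr4:86857348-86857377, minus strand): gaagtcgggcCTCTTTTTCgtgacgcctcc
Rps18, small subunit (chr17:33955646-33955675, minus strand): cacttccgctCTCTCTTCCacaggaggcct
Rps10, small subunit (chr17:27635225-27635254, minus strand): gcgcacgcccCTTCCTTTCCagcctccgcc
Rpl15, large subunit (chr14:18270967-18270996, minus strand): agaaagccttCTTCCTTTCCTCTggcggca
Rpl28, large subunit (chr7:4792955-4792984, plus strand): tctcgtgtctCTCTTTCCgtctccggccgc
Rps19bp1, AROS (chr15:80264287-80264316, minus strand): cggaagtagcTCgccgcgtgtgggcggggc
Rpl7l1, paralogue of Rpl7 (chr17:46782637-46782666, minus strand): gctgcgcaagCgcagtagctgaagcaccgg
Rpl39l, paralogue of Rpl39 (chr16:10170218-10170247, plus strand): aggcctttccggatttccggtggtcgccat
The pyrimidine runs were 8 to 13 bases long in the first 5 windows, which were picked for that start, and 0 to 2 bases in the last 3. Rps19bp1, Rpl7l1 and Rpl39l were the members furthest from 0, and none of them began with a C and 4 more pyrimidines in this table. That start was lacking in 49 of the 62 members with a promoter, so these 3 windows show no link between start and difference. The log2 differences of the 13 members with such a start ran from -0.09 (Rps21) to 0.13 (Rps27), with a median of 0.03. Those of the other 49 with a promoter had a median of 0.03 and ran from -0.44 (Rps19bp1) to 1.10 (Rpl39l). Neither of these 2 is a core ribosomal protein, while all 13 with the start are. The core, with or without the start, ran from -0.15 to 0.20, so the wider range of the 49 says nothing about the start.

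Signals were usable over the whole set. Every core probe was well above background on all 8 arrays, against 66.8% to 75.3% of all probes per array. No spot was saturated, and no member exceeded the top of the linear range that each array's spike-in RNAs gave. Before normalization the brightest member came close to that top on WT1 (18.56 against 18.61) and WT3 (18.51 against 18.57). On the other arrays it lay further below. Zbtb7b checked the labels: its log2 signal was 9.90 to 10.42 on the WT arrays and 1.55 to 1.65 on the KO arrays, where no spot was well above background. Under quantile normalization this makes it at least 81.5-fold lower in KO mammary glands. Its fold depends on the processing: over 16 alternatives the log2 difference ran from -8.67 to -4.23, and it was called in all 16. The WT arrays shared 1 slide and the KO arrays a second one, and in every value here genotype and slide cannot be told apart. In whole glands, fewer cells of a type and less RNA per cell cannot be told apart either.

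The mRNAs of the core ribosomal proteins stayed within a narrow band in KO mammary glands. None of the 75 passed an adjusted p of 0.05 in limma in either direction, none had an unadjusted p under 0.05, and the t-test of the methods gave the same 0 both ways. Over all 82 members 0 were called higher and 1 lower, where 7.53% of all genes tested were called higher and 8.94% lower. The log2 differences of the core ran from -0.15 (Rpl31) to 0.20 (Rpl5) with a median of 0.03, and 60 of the 75 lay within 0.1 of zero. Standard errors were 0.08 to 0.18. Under quantile normalization, the scaling for which intervals are given, the 95% interval of the difference stayed within 1.5-fold for each of the 75. The furthest ends were 0.752 times WT for Rpl31 and 1.42 times WT for Rpl5. Among all members the interval did so for 77 of 82 (93.9%), against 42% of all genes tested and 52.1% of the brightest 25% of genes. WT and KO values did not overlap for 1 of the 82 members, Rps19bp1, while 24% of all genes tested separated in that way. The SD between replicates had a median of 0.14 on the log2 scale over the members, 0.19 over the brightest 25% of genes and 0.23 over all genes tested.

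**Figure D1:**
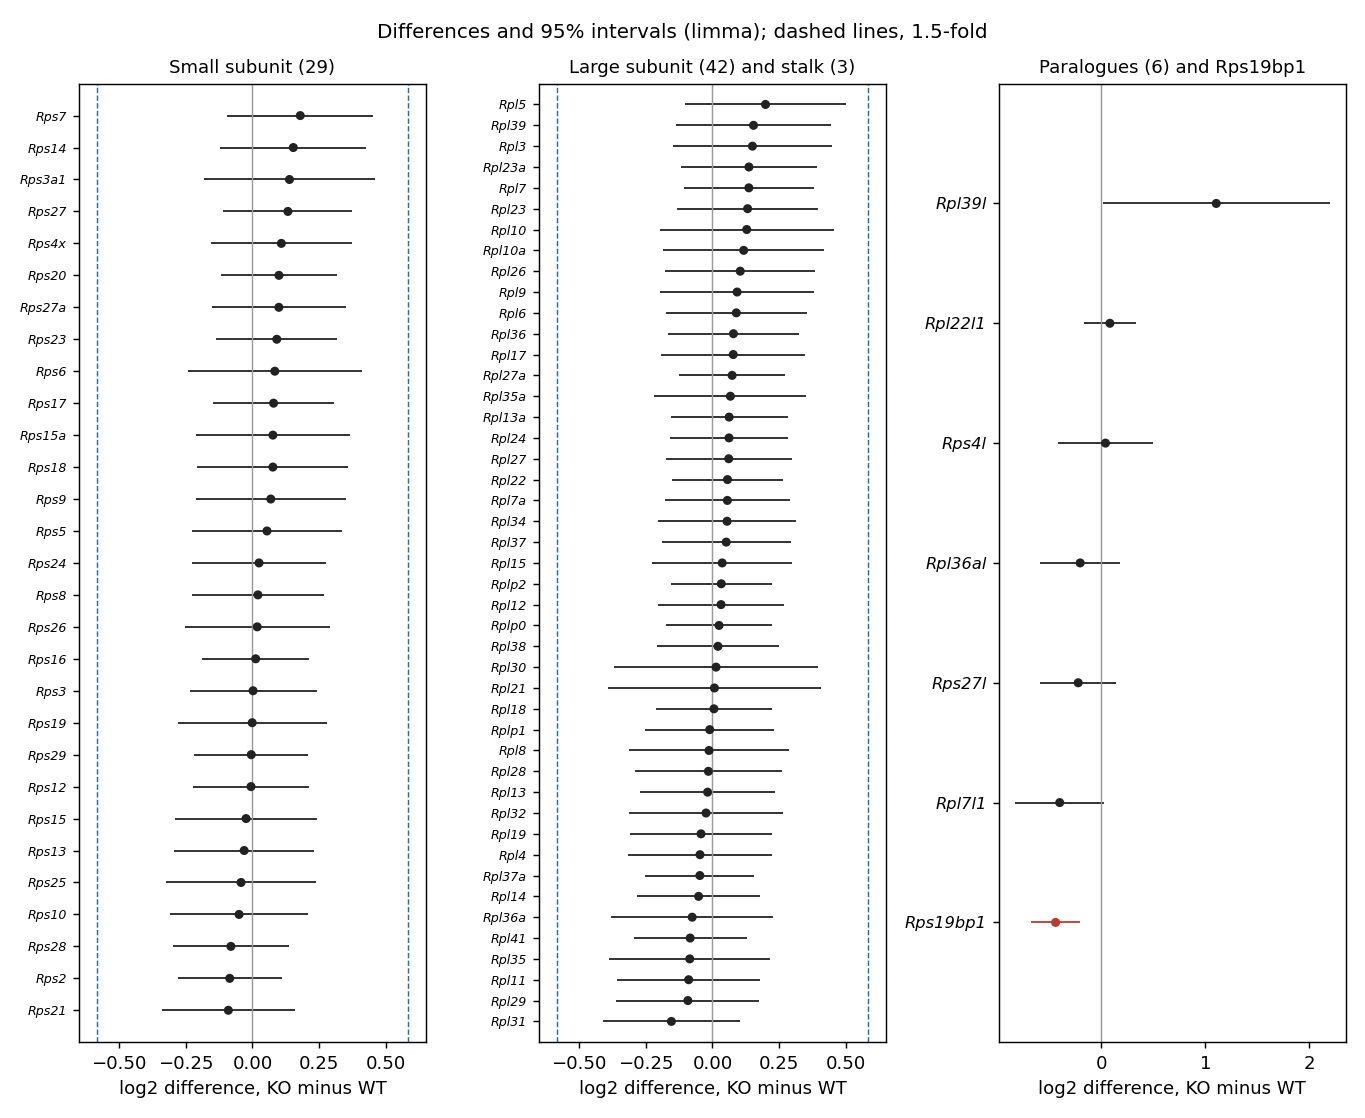
Log2 difference between KO and WT mammary glands (x axis, KO minus WT) for 81 of the 82 members tested, with its 95% interval from limma, 4 arrays a genotype, in 3 panels by role (the third has a wider axis). Under quantile normalization every interval of the 74 core proteins drawn stays inside the dashed lines at 1.5-fold and crosses 0, and Rps19bp1 (red) is the member that passed the adjusted p.

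The small difference of the core changed sign with the scaling. After quantile normalization, 49 of the 75 lay above 0 and 26 below. When each array was instead scaled to its 75th percentile, 4 lay above and 71 below, with a median of -0.13 and a range from -0.30 to 0.02, while the median of all genes moved from -0.02 to -0.05. Under that scaling 3 core genes, Rpl11, Rpl19 and Rps21, had an unadjusted p under 0.05 and none passed after adjustment, the lowest adjusted p of limma being 0.0926. The values quantile-normalized by the authors put 40 above and 35 below. The core sits at the bright end of the array, 74 of its 75 genes being among the brightest 25% of those tested. No direction can therefore be given for the core as a whole. Over all 16 alternatives none of 1200 core values was called, the lowest adjusted p being 0.0874 (Rpl5, without WT replicate 1) and the largest log2 difference 0.30 in either direction.

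Core mRNAs varied together from array to array. Their mean log2 signal was 16.41, 16.30, 16.28 and 16.27 on WT arrays 1 to 4 and 16.19, 16.45, 16.32 and 16.43 on KO arrays 1 to 4. KO1 was thus below all WT arrays, KO2 and KO4 above all of them, and the genotypes overlapped. KO1 was the lowest of the KO arrays for 63 of the 75 core genes and KO2 the highest for 50, while WT1 was the highest of the WT arrays for 44. Under scaling to the 75th percentile the mean ran from 16.35 to 16.47 on WT arrays and from 16.14 to 16.39 on KO arrays, again overlapping, with means of 16.39 (SD 0.05) and 16.27 (SD 0.11). That difference of -0.13 was larger than either SD, where under quantile normalization it was 0.03, and KO1 was still the lowest of the KO arrays for 54 genes. Without KO1 the core median rose from 0.03 to 0.08, and without KO2 it was 0.01. Genes on 1 array share its RNA and its scaling, so these counts describe arrays and are no test.

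**Figure D2:**
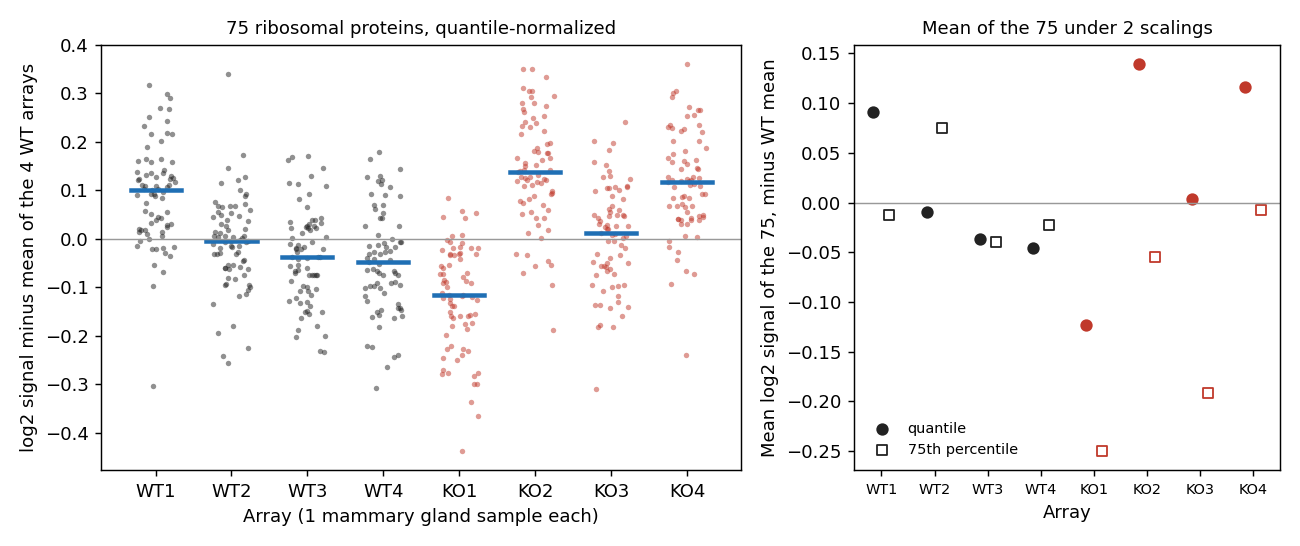
Left, log2 signal of each of the 75 core ribosomal proteins on each array minus its mean over the 4 WT arrays (y axis), with a blue line at the median of each array. Right, the mean of the 75 per array relative to the WT mean under quantile normalization (filled) and 75th percentile scaling (open); KO1 is lowest among the 8 arrays under both, and the KO arrays as a group shift downward under the second.

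Small subunit proteins, which read the mRNA, had log2 differences from -0.09 (Rps21) to 0.18 (Rps7) with a median of 0.02 over 29 genes. Rps6, the substrate by which S6 kinase activity is usually read, had log2 signals of 15.24, 14.96, 15.03 and 14.87 on WT arrays and 14.77, 15.32, 15.16 and 15.18 on KO arrays. The KO arrays held both the lowest and the highest Rps6 value, and the difference was 0.08 (95% interval -0.24 to 0.41). Rps7, which can bind Mdm2, measured 16.91, 16.67, 16.67 and 16.74 on WT arrays and 16.69, 17.10, 16.87 and 17.05 on KO arrays. KO2 and KO4 exceeded every WT array for Rps7, but its difference of 0.18 had an interval from -0.10 to 0.45 (adjusted p = 0.312, limma). Rps18, a frequent reference gene, differed by 0.08 (-0.21 to 0.36), and Rps23, a protein of the decoding centre, by 0.09 (-0.13 to 0.32). Rps14 and Rps19, whose partial loss causes anaemia in humans, had differences of 0.15 (-0.12 to 0.43) and of 0.00 (-0.28 to 0.28) respectively.

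Large subunit proteins, which surround the site of peptide bond formation and the exit tunnel, had a median log2 difference of 0.05 over 43 genes. The lowest was Rpl31, a protein at the tunnel exit, with 11.26, 11.32, 11.06 and 11.33 on WT arrays and 11.01, 11.17, 10.93 and 11.25 on KO arrays. These overlapped, and the difference of -0.15 had an interval from -0.41 to 0.10. Rpl3, which reaches towards the peptidyl transferase centre, differed by 0.15 (-0.15 to 0.45), and Rpl10, added in the last cytoplasmic steps of assembly, by 0.13 (-0.20 to 0.46). Rpl30 and Rpl21 varied most between replicates, with SDs of 0.31 among KO arrays for Rpl30 and of 0.28 among WT arrays for Rpl21, and their differences were both 0.01. Rplp0, Rplp1 and Rplp2 form the stalk that recruits elongation factors. Their differences were 0.03, -0.01 and 0.03, and no interval in the stalk went beyond 0.839 or 1.18 times WT.

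Rpl5 and Rpl11 sit with 5S rRNA in a particle that can also hold Mdm2 and so raise p53, and Rpl23, Rpl26 and Rps7 act on the same pathway. Rpl5 measured 16.72, 16.27, 16.38 and 16.25 on WT arrays and 16.45, 16.76, 16.59 and 16.63 on KO arrays. All KO arrays exceeded 3 of the 4 WT arrays, but WT1 lay within the KO range, and the difference of 0.20 had an interval from -0.10 to 0.50 (adjusted p = 0.307, limma). Its partner Rpl11 lay on the other side of zero, with 16.97, 16.98, 16.83 and 17.17 on WT arrays and 16.85, 17.11, 16.89 and 16.75 on KO arrays. The Rpl11 ranges overlapped and the difference was -0.09 (-0.36 to 0.18). Rpl23 differed by 0.13 (-0.13 to 0.40) and Rpl26 by 0.10 (-0.18 to 0.39).

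Members that serve as reference genes were close to equal under quantile normalization. Rpl13a differed by 0.06 (-0.16 to 0.28), Rpl4 by -0.05 (-0.32 to 0.22) and Rplp0 by 0.03 (-0.17 to 0.22). Their signs depended on the processing. Over 16 alternatives the differences ran from -0.13 to 0.11 for Rpl13a, -0.13 to 0.04 for Rpl4 and -0.12 to 0.05 for Rplp0. Of 10 common reference genes outside the family, Gapdh passed the test, with a log2 difference of -0.35 (SE 0.09, adjusted p = 0.0364, limma), and Gapdh values on WT arrays (15.50 to 15.68) lay above those on KO arrays (15.17 to 15.31). Gapdh kept an adjusted p under 0.05 in 8 of 16 alternatives.

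The paralogues had a wider range of differences than the core, and none of the 6 tested was called. Rpl39l, a copy of Rpl39 best known from testis, had low signals of 5.12, 5.95, 6.76 and 4.97 on WT arrays and 6.64, 7.07, 5.84 and 7.66 on KO arrays. WT3 reached into the KO range and KO3 into the WT range. The difference of 1.10 (0.01 to 2.20) had an adjusted p of 0.134 in limma, and another probe of the gene was not well above background on any array. Rpl7l1, a relative of Rpl7, measured 10.07, 10.34, 10.35 and 9.64 on WT arrays and 9.55, 9.68, 10.04 and 9.53 on KO arrays. WT4 lay within the KO range and the other WT arrays above it, and the difference of -0.40 (-0.83 to 0.03) had an adjusted p of 0.161. A second, dimmer Rpl7l1 probe measured 8.34, 8.88, 8.67 and 8.42 on WT arrays and 8.05, 7.95, 8.14 and 8.03 on KO arrays. On that probe every WT array exceeded every KO array, and its difference of -0.54 (SE 0.14) had an adjusted p of 0.0349 in the limma fit over all probes. So the call for Rpl7l1 differed between its probes while the direction did not.

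Rps27l, a p53 target, differed by -0.22 (-0.59 to 0.14), and Rpl36al by -0.20 (-0.59 to 0.18). Rpl22l1, whose parent Rpl22 is needed for the development of T cells, differed by 0.08 (-0.17 to 0.33), and Rps4l, a transcribed pseudogene by its annotation, by 0.04 (-0.42 to 0.49). Each paralogue was also set against its parent within an array, by the difference of their log2 signals. This shifted in KO mammary glands by 0.95 for Rpl39l against Rpl39 and by -0.54 for Rpl7l1 against Rpl7. It shifted by -0.36 for Rps27l against Rps27, and by -0.13 to 0.02 for the other 3 pairs. The small shifts of Rpl36al and Rpl22l1 depend on the parent probe. Rpl36a differed by -0.08 on the probe used and by 0.21 and 0.19 on its others. Rpl22 differed by 0.06 on the probe used and by 0.50 on a dimmer one. Against those other parent probes both shifts would be more negative, but they were not computed. The lowest p in an exact permutation test (two-sided, 70 relabelings) was 0.114 among the 6 pairs (0.343 after Benjamini-Hochberg adjustment over them), where the smallest p this design allows is 0.0286. Within arrays of the same replicate number the shift was negative in 4 of 4 pairs of arrays for Rpl7l1 (-0.42, -0.98, -0.54 and -0.21) and for Rps27l (-0.09, -0.88, -0.29 and -0.17). An exact sign-flip test over 4 such pairs (two-sided), added after the data had been seen, gave 0.125 for both, the smallest p it allows, and 0.375 after adjustment over the 6 paralogues.

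Rps19bp1 was the 1 member called. Its product AROS binds Rps19 and is also known as a regulator of the deacetylase Sirt1. Its log2 signal was 12.30, 12.45, 12.51 and 12.24 on WT arrays and 11.81, 11.95, 11.99 and 11.97 on KO arrays. Every WT array exceeded every KO array, and the difference was -0.44 (SE 0.10, 95% interval -0.67 to -0.21, adjusted p = 0.0268, limma). A second probe measured 11.05, 11.46, 11.23 and 11.03 on WT arrays and 10.60, 10.64, 10.80 and 10.77 on KO arrays. The second probe separated the genotypes too, with a difference of -0.49 (SE 0.12, adjusted p = 0.0353 over all probes). The call held in 11 of 16 alternatives, where the difference stayed between -0.50 and -0.40 and the adjusted p between 0.0111 and 0.0719, and it was lost when WT2, WT3, KO1, KO2 or KO3 was left out. Rpl3l, the member that was not tested, was well above background on 1 of 8 arrays, and no fold is given for it.

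**Figure D3:**
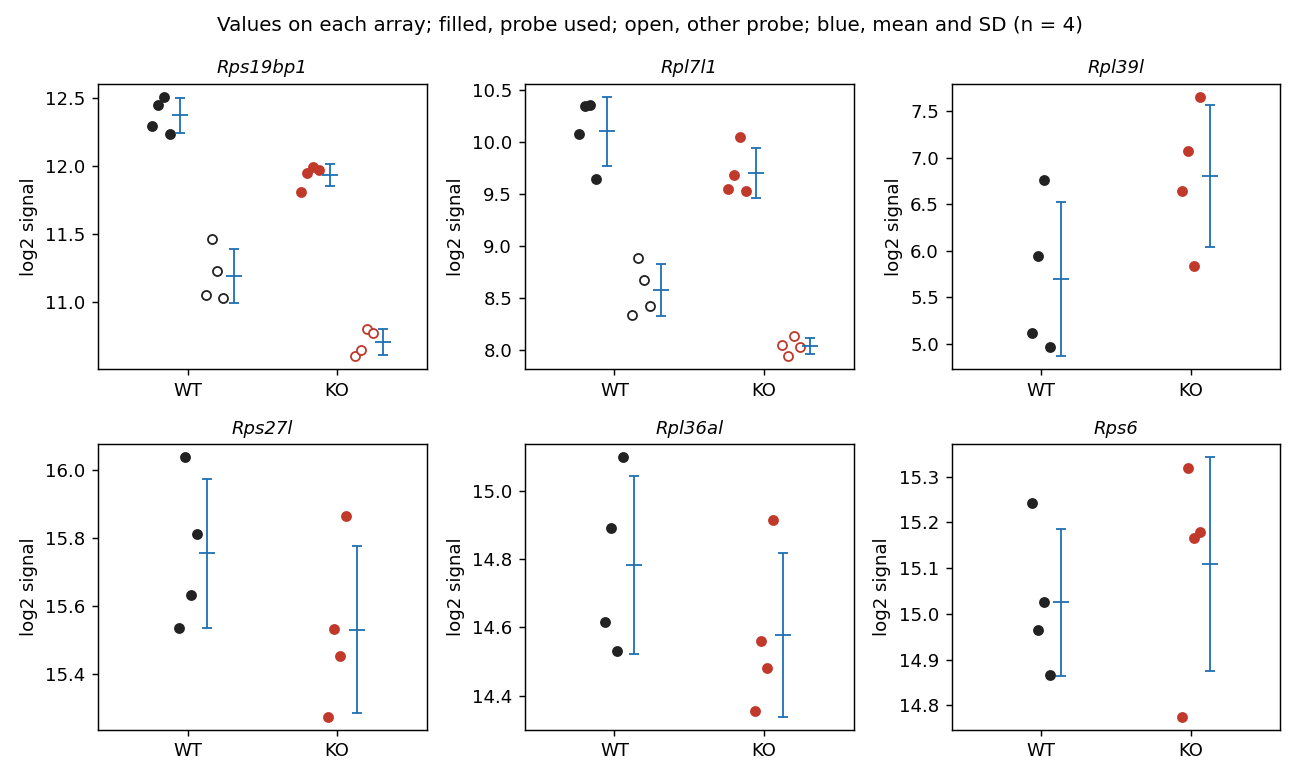
Log2 signal on each of the 4 WT (black) and 4 KO (red) arrays for 6 genes, for the probe used (filled) and, where a second probe was bright enough, that one (open), with mean and SD in blue. Both probes of Rps19bp1 and the dimmer probe of Rpl7l1 separate the genotypes, while the 4 other genes overlap.

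Ribosomal protein genes have many processed copies elsewhere in the genome that a probe may also bind, so the probes of a gene were compared. Among the 83 genes 31 had more than 1 probe, and 35 further probes passed the filter. Of these 35 differences 26 had the sign of the probe used and 32 lay within 0.2 of it, with a median distance of 0.05. The exceptions were Rpl22 and both further probes of Rpl36a. For Rpl22 the brighter probe differed by 0.06, and a dimmer one gave 11.40, 10.54, 11.10 and 10.35 on WT arrays and 11.55, 11.29, 11.62 and 10.91 on KO arrays. The dimmer probe's ranges overlapped, and its difference of 0.50 (SE 0.25) had an adjusted p of 0.197. For Rpl36a the brightest probe gave -0.08 and the others 0.21 and 0.19, so its sign depends on the probe. Of all 117 member probes in the fit 3 were called, the pair of Rps19bp1 and the second of Rpl7l1.

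**Figure D4:**
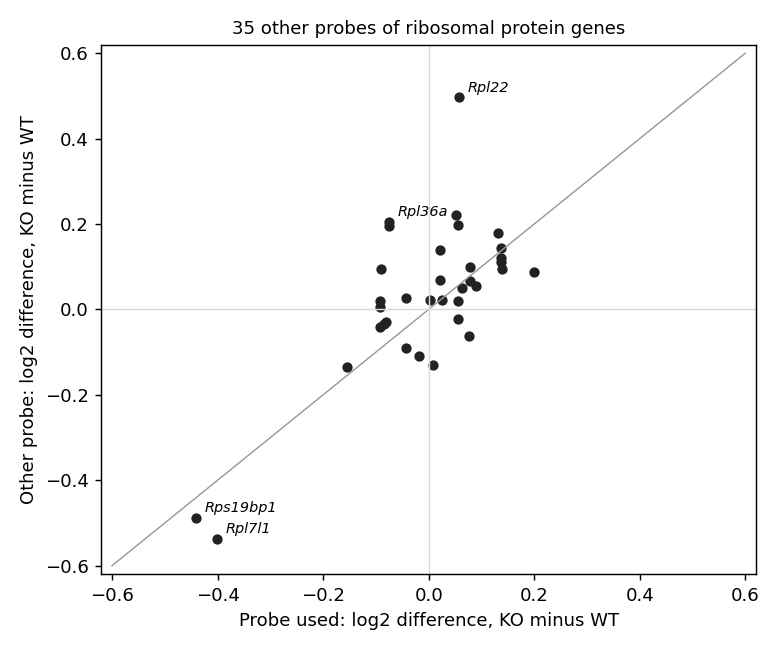
Log2 difference (KO minus WT) of each of 35 further member probes (y axis) against that of the probe used for the same gene (x axis), with the line of equality. Most points lie near the line within 0.2 of zero, Rpl22 and Rpl36a lie above it, and Rps19bp1 and Rpl7l1 are low on both axes.

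Ribosomal proteins whose symbols fall outside the rule were close to equal too under quantile normalization. Rpsa, Fau and Rack1 had log2 differences of -0.15, 0.01 and 0.04, none was called, none had an interval beyond 1.5-fold, and the t-test of the methods called none either. Over the 16 alternatives Rpsa stayed below 0, from -0.33 to -0.11. Fau ran from -0.06 to 0.07 and Rack1 from -0.12 to 0.07. Among 9 elongation factors and their partners 0 were higher and 1 lower, Eef1e1 (-1.01, adjusted p = 0.0225), a scaffold of the tRNA synthetase complex, while Eef1a1, which brings tRNA to the ribosome and whose mRNA has the pyrimidine start, differed by 0.19 (-0.07 to 0.45). Among 36 initiation factors 1 was higher and 8 lower, the lowest p values being those of Eif2b4 (-0.78, adjusted p = 0.0143) and Eif2b1 (-0.66, adjusted p = 0.0150), subunits of the exchange factor of eIF2, and of the scaffold Eif4g3 (-0.79, adjusted p = 0.0295). The first pair passed in all 16 alternatives and Eif4g3 in 10. Of 15 genes listed for signalling to the ribosome, through Akt, mTORC1 or Rps6k kinases, 0 were higher and 2 lower (13.3%, against 8.94% of all genes). The 2 were Akt1 (-0.73, adjusted p = 0.0206, called in 13 of 16 alternatives) and Rps6ka1 (-0.74, adjusted p = 0.0452, in 7). Rps6kb1, the kinase of Rps6, measured 9.22 to 9.76 on WT arrays and 8.92 to 9.12 on KO arrays. These did not overlap, and the difference of -0.39 (-0.70 to -0.08) had an adjusted p of 0.0789.

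Part of the machinery that makes ribosomes fell. Of 88 genes for rRNA processing and ribosome assembly 0 were called higher and 27 lower (30.7%, against 8.94% of all genes), with a median log2 difference of -0.47. The lowest p values belonged to Rrp12, needed for export of both subunits, to the small subunit processome gene Nol6, and to Wdr12, a partner of Bop1 in large subunit maturation. Rrp12 measured 6.73, 7.39, 7.07 and 6.69 on WT arrays and 5.49, 5.73, 5.50 and 5.85 on KO arrays. Every WT array lay above every KO array, by a mean of 1.33 (SE 0.17, adjusted p = 0.00669, limma). Nol6 differed by -1.02 and Wdr12 by -0.81, and all 3 were called in every one of the 16 alternatives, although the Rrp12 difference shrank to -0.74 with normexp background correction. WT4 stood apart from the other WT arrays in this list: the mean log2 signal of the 88 genes was 10.26, 10.47, 10.32 and 9.92 on WT arrays and 9.76, 9.76, 9.94 and 9.74 on KO arrays. WT4 lay just below KO3, so the genotypes overlapped at the level of the list. Of 22 genes of the RNA polymerase I machinery 0 were higher and 5 lower (22.7%, against 8.94% of all genes). Among the 5 were Polr1e (-0.81), Polr1b (-0.84) and Polr1a (-0.70), called in 10, 8 and 8 of the 16 alternatives. The median of the 22 genes was -0.05. Their mean ran from 10.55 to 10.64 on WT1, WT2 and WT3, was 10.32 on WT4 and ran from 10.30 to 10.42 on KO arrays, so WT4 again lay in the KO range. The count of 27 fell to 8, 7, 3, 8 and 4 without WT2, WT3, KO1, KO2 and KO3 and rose to 47 without WT4. Over all genes the calls went from 2329 to 780, 983, 756, 946 and 515 in the first 5 cases and to 1825 without WT4.

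Mitochondrial ribosomal proteins, which are encoded in the nucleus and serve the separate ribosome of that organelle, held called genes of both directions. Of 77 tested 1 was called higher, Mrpl9 (0.50), and 20 lower (26.0%), with a median log2 difference of -0.22, and the differences ran from -0.71 to 0.50. Mrps27 (-0.70, adjusted p = 0.0133), Mrps7 (-0.64, adjusted p = 0.0171) and Mrps18b (-0.71, adjusted p = 0.0218) had the lowest p values. The mean log2 signal of the 77 was 11.87 to 12.01 on WT arrays and 11.69 to 11.78 on KO arrays, so the genotypes did not overlap, as they did for the core. With replicate number as a block 13 were called lower. Without WT2, WT3, KO1, KO2 or KO3 the count was 2 each time, and without WT4 it was 12. Whether the cytosolic and mitochondrial sets differ from each other was not tested.

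**Figure D5:**
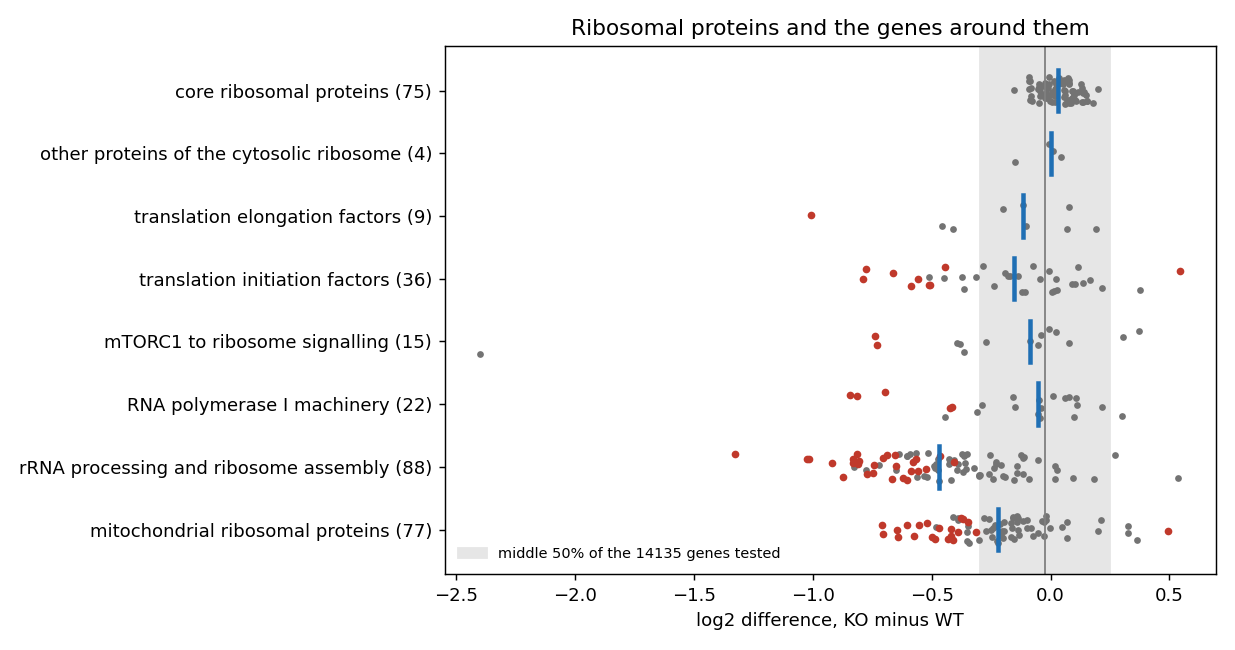
Log2 difference (x axis, KO minus WT) of each gene in 8 lists, with called genes in red, the median of each list as a blue bar, and the middle 50% of all genes tested in grey. The 75 core ribosomal proteins lie close to 0 with no called gene, while the lists for rRNA processing and mitochondrial ribosomal proteins are shifted to the left.

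Some markers of cell types were called in the same arrays, where 7.53% of all genes tested were called higher and 8.94% lower. Of 7 neutrophil markers bright enough to test 3 were called higher and 0 lower. Their mean log2 signal was 7.45 to 8.47 on WT arrays and 9.58 to 10.65 on KO arrays. Mmp8 and Cxcr2 were not bright enough to be tested, and Ly6g was not matched to a probe here. Of 10 luminal epithelial markers 4 were higher and 0 lower (mean 13.40 to 13.75 on WT arrays and 13.86 to 14.03 on KO arrays), and all 10 milk protein genes were detected, with 1 lower. Differences of the luminal markers lay above 0 for 7 and below for 3. Under 75th percentile scaling their means overlapped (13.49 to 13.82 on WT arrays and 13.81 to 13.95 on KO arrays). Of the remaining lists, adipocyte (2 of 10), B and plasma cell (1 of 7), fibroblast (1 of 10) and erythroid (1 of 4) markers held higher genes, basal epithelium 1 lower of 10, and macrophage and endothelium none. Of 7 T cell markers tested 1 was lower, and Cd4, Cd28 and Trat1 were not bright enough. KO1, the array with the lowest core mean, had the highest neutrophil, erythroid and fibroblast marker means of the 8 arrays (10.65, 13.18 and 13.53). KO4, whose core mean of 16.43 was above all WT arrays, came next after KO1 for neutrophil and erythroid markers (9.86 and 12.25). Its fibroblast mean was 12.99, the lowest of the KO arrays. Whether the core and these markers moved together over the 8 arrays was not tested. The part of these cells in the values above was not tested.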

How the data were processed

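Gene expression of 4 WT and 4 KO mammary glands was measured on Agilent Mouse 4 × 44K arrays. The authors deposited the scanner output, whose processed intensity was background-corrected within each array by Agilent Feature Extraction 10.7, and a table of log2 values quantile-normalized in GeneSpring, used as an alternative (its columns had medians of 6.32 and correlated with log2 processed intensity at r of 0.9985 or more). Signals of non-control spots were log2-transformed and quantile-normalized in limma 3.58.1 (R 4.3.3), outlier spots were dropped, and the spots of a probe averaged to 41174 probes. Accessions of 27479 probes matched 18749 symbols of the GRCm38.p6 gene table; the array design names mm9, so no gene coordinates are given beyond the promoter windows. A probe entered if well above background on all 4 arrays of a genotype, with 1 probe a gene (highest mean signal). KO was compared with WT by limma with Benjamini-Hochberg adjustment over all 14135 genes. "Called" means an adjusted p under 0.05, and intervals are 95%. The number of arrays limits the precision, and p-values measure the spread between 4 replicates.

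Members and lists were chosen with earlier results of these data known. Named were called members, members of the role groups, parents of paralogues, the 3 brightest, dimmest and most variable members, members with an array that stood apart, and the 3 genes of lowest p in each pathway list; other names were chosen after their values were seen. Same-numbered WT and KO arrays deviated together from their genotype means (r = 0.22, 0.17, 0.30 and 0.28 for numbers 1 to 4), so by the rule used, every r over 0.1, the numbers were taken as pairs and a replicate block was fitted as an alternative. The pairing is weak: differently numbered arrays reached 0.34 (WT1 and KO3), and over the core members alone r was -0.20 and -0.25 for numbers 1 and 2. The other alternatives were 75th percentile scaling, normexp background correction (offset 50) on median signals, since a mean signal was not among the columns used here, no filter, the mean of a gene's probes, every probe on its own, the two-sided t-test of the methods, array weights, and leaving out each array from the normalized values. The fit was tested on simulated data. A few genes are counted in the totals but not reported here by name.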

Additional observations from a re-analysis of the deposited data

Results flagged for a closer look

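Among 164 comparisons of the 4 arrays of a genotype (82 members, 2 genotypes), 8 had 1 array further from the others than Dixon's 95% limit for 4 values allows. Chance gives about 5% of such comparisons, so 8 is near that share, and 7 of them are given here. Array WT1 was high for Rpl10a (15.26, the others 14.86), Rpl29 (14.89, the others 14.62 to 14.66) and Rpl35a (16.27, the others 16.09 to 16.12), and WT3 was low for Rpl35 (16.39, the others 16.58 to 16.61). Array KO1 was low for Rpl13a (14.88, the others 15.07 to 15.10) and Rplp1 (17.98, the others 18.19 to 18.23). KO4 was low for Rpl37a (17.79), where the other 3 KO arrays held the identical value 17.85, because quantile normalization gives 1 value to probes of the same rank. All values are log2 signals, and none of these 7 genes was called.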

How the results depend on the processing

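The count of members called higher, 0, became 1 without the filter on dim probes (Rpl3l, which was not well above background on 7 of 8 arrays). The count called lower, 1, became 3 probes of 2 genes with every probe on its own and ran from 0 to 1 when 1 array was left out. The members' median log2 difference of 0.03 became -0.13 under 75th percentile scaling and ran from 0.01 to 0.08 when 1 array was left out. For mitochondrial ribosomal proteins, 20 lower became 12 without the filter and 13 with the replicate block, and ran from 2 to 21 when 1 array was left out. For rRNA processing and assembly, 27 lower became 13 with the t-test of the methods and 45 with array weights, and ran from 3 to 47 when 1 array was left out. Both of the latter counts were added to the alternatives after the data had been seen. Over all genes, 2329 calls became 1389 with the t-test of the methods and 3840 with array weights. The block by replicate pairing changed no member's call. Of 544 values of 34 named members under the alternatives, 515 kept their side of the threshold and their size within the spread of replicates, 24 moved by more than that spread, 5 lost the call (all Rps19bp1), and none reversed. For 25 named genes outside the family, 59 of 400 values lost the call and 2 gained it. The cause of these changes was not tested, beyond fewer arrays in the fits that leave 1 out.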
